A study of Mus musculus with 12 samples.

Results

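The genes of oxidative phosphorylation that are encoded in the nucleus were followed through RNA sequencing of C2C12 cells, a mouse line of immortalized myoblasts, after depletion of KEAP1, CCNF or both. The genes were taken by name: protein-coding genes whose symbol begins with Nduf, Sdha to Sdhd, Uqcr, Cox4 to Cox8 or Atp5. This gave 98 of the 54532 genes in the table, under 97 symbols, since Atp5o is listed 2 times. By complex they were 44 genes of complex I, 8 of complex II, 8 of complex III, 20 of complex IV and 18 of complex V, with the assembly factors that carry these names counted in their complex. Of the 98 genes, 89 were expressed highly enough to be tested, among 15122 tested genes.

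Oxidative phosphorylation passes electrons from NADH (complex I) and succinate (complex II) through complex III and cytochrome c to oxygen at complex IV, and the ATP synthase, complex V, uses the proton gradient built on the way. Complexes I, III, IV and V join subunits made from nuclear genes with subunits made from the mitochondrial genome, whereas complex II is wholly nuclear. Myoblasts that mature into myotubes make more mitochondria, and the coactivator PGC-1α (Ppargc1a) with the factors NRF1, GABP and ERRα is known to drive these genes. NRF1, nuclear respiratory factor 1, is not NRF2, the antioxidant factor encoded by Nfe2l2 that KEAP1 marks for degradation.

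The 4 groups of 3 libraries each were transfected with a control siRNA (siCONTROL), an siRNA to Keap1 (siKEAP1), an siRNA to Ccnf (siCCNF) or both (siKEAP1/siCCNF). Transfections used 30 nM of siRNA, and poly(A) RNA was taken 48 h later from cells in growth medium. Whether the dose was the total or that of each siRNA in the double depletion, and which of the study's siRNAs to Ccnf was used, is not given in the sources used here. KEAP1 is the substrate adaptor that presents NRF2 to a CUL3 ubiquitin ligase, and CCNF (cyclin F) is an adaptor of a CUL1 ligase. Levels are given as CPM, counts scaled to library totals after TMM adjustment. The libraries held 18464209 to 37743198 counts. The labels call the 3 libraries of a group biological replicates, and every group shares 1 cell line, so the comparisons describe C2C12 cells. Keap1 mRNA fell from a mean of 87.8 CPM in siCONTROL cells to 12.6 after siKEAP1 and to 24.1 after siKEAP1/siCCNF. Ccnf mRNA stood at 81.1 CPM in the control, 59.4 with siKEAP1, 20.5 with siCCNF and 24.5 with both siRNAs. Keap1 was thus higher in the double depletion than in the single one, with a log2 fold change of 0.93 (SE 0.08, adjusted p = 1.06e-06), and this difference stands beside every comparison of those 2 groups below. In such bulk libraries, fewer cells of a kind and less RNA per cell cannot be told apart.

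A pair of libraries stood apart from the others in these genes. In siCONTROL library 1, 87 of the 89 tested genes were above both other libraries of the group, beside 6454 of all 15122 tested genes. Their median log2 ratio there was 0.48, whereas the median over all tested genes was 0.00. In library 3 of siKEAP1/siCCNF, 82 of 89 were above both others, beside 6430 of all 15122, with a median log2 ratio of 0.28. Counts of these genes made up 1.33% and 1.21% of those libraries and between 0.92% and 1.09% of the other 10. In both libraries, the deviation of a gene from its group fell with mRNA length (Pearson's r of -0.47 and -0.46 over 12873 genes, given as a description), and the genes of oxidative phosphorylation have short mRNAs, with a median of 955 bases against 3025 for all tested genes. The part of length in the results was not tested beyond the refits given here. The counts over all of these genes are therefore given from all 12 libraries and again from 10 libraries without this pair, and those of smaller groups also where the 10 libraries move them by 1.5 times or more. The fit of 10 libraries tested 15545 genes and 90 of oxidative phosphorylation, Cox6b2 being the added one, and left siCONTROL and siKEAP1/siCCNF with 2 libraries each. That fit kept siCCNF library 1, in which 75 of 89 genes were above both other siCCNF libraries, beside 5184 of all 15122. The median log2 ratio of the 89 genes was smaller there, at 0.13. The counts from 10 libraries are therefore an alternative and not a corrected result.

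**Figure D1:**
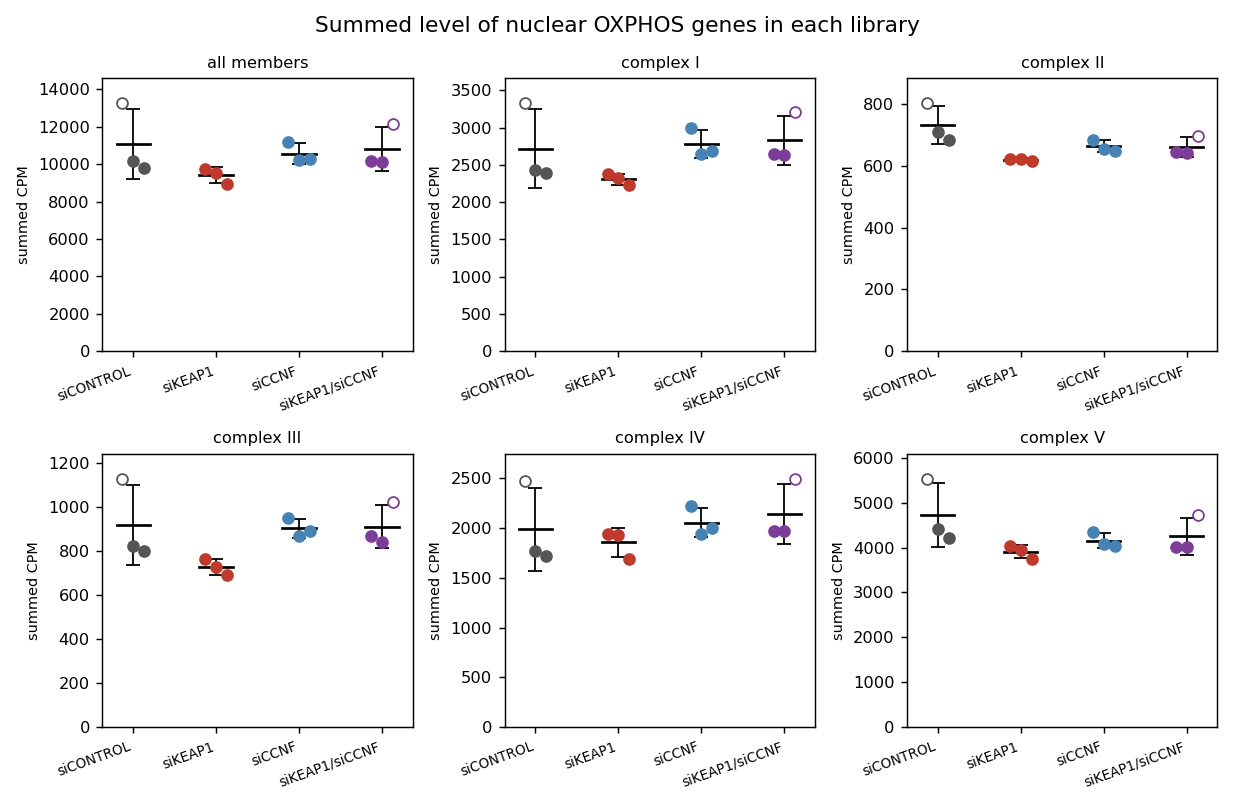
Summed CPM of the tested genes of each complex in every library (y axis, CPM, from 0), by siRNA group (x axis). Points are libraries, open circles mark siCONTROL library 1 and siKEAP1/siCCNF library 3, and bars give the mean ± SD of 3 libraries. The open circles are the highest point of their group in all 5 complexes, and the siKEAP1 libraries are below every siCONTROL library for complexes I, II, III and V but not for complex IV.

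Summed over each complex, the siKEAP1 libraries lay below all siCONTROL libraries for complexes I, II, III and V. For complex III, the sums were 1128, 825 and 801 CPM in siCONTROL libraries 1 to 3, 762, 728 and 691 after siKEAP1, 952, 868 and 893 after siCCNF and 868, 843 and 1024 after siKEAP1/siCCNF. All 3 siKEAP1 libraries lay below all others there. For complex IV the sums overlapped, with 1723 to 2471 CPM in siCONTROL cells and 1691 to 1942 after siKEAP1. For complex V, the sums after siCCNF, at 4343, 4088 and 4032 CPM, also overlapped those of siCONTROL, at 5529, 4417 and 4220 CPM. The sums of complex V are dominated by few genes, above all Atp5b and Atp5a1, and single genes are therefore described next.

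Per length, the most abundant of these mRNAs in siCONTROL cells were Cox6a1 at 424 ± 86.7 FPKM, Cox8a at 383 ± 70.2 FPKM, Atp5b at 354 ± 42.4 FPKM and Atp5a1 at 276 ± 23.0 FPKM (fragments scaled by the gene length listed in the table and by library total, mean ± SD, n = 3). At these SDs the order of the 4 levels was not resolved. The lowest of the tested genes were the complex II assembly factors Sdhaf1 at 0.515 ± 0.0851 FPKM and Sdhaf3 at 0.699 ± 0.178 FPKM. Of the 2490 exon bases of Sdhaf1, 1733 are shared with E130208F15Rik on the opposite strand, so its level is uncertain. Of the 9 genes left untested for low counts, 8 were isoforms known from specialized tissues or conditions: Cox4i2, Cox6a2, Cox6b2, Cox7a1, Cox7b2, Cox8b, Cox8c and Ndufa4l2. The heart and skeletal muscle isoforms Cox6a2, Cox7a1 and Cox8b had means of 0.173, 0.481 and 0.0299 CPM in siCONTROL cells, against 300.0, 115 and 210.4 CPM for the common isoforms Cox6a1, Cox7a2 and Cox8a. The muscle forms were thus close to absent in all 4 groups, where the highest of their group means was the siCONTROL value of Cox7a1. Cox8c and the second Atp5o row had no count in any library, which allows levels of up to 0.079 to 0.16 CPM per library by counting error alone.

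Depletion of KEAP1 lowered 20 of the 89 tested genes and raised none at an adjusted p below 0.05 in edgeR's quasi-likelihood test, which is the threshold used for every call below. The background was 20.2% of all tested genes lower and 20.4% higher. In this fit, the share of lower genes, 22.5%, was thus near the background and the share of higher genes, 0%, was not. DESeq2 also called none higher, limma on FPKM called 1, and none were higher at an unadjusted p below 0.05. For these counts the shares over all tested genes are not given. The median log2 fold change was -0.22 over the 89 genes and -0.01 over all tested genes. In the 10 libraries, 23 genes were lower and 9 higher, against backgrounds of 25.0% and 23.6%, and the median was -0.05. By complex, the lower calls among 12 libraries were 8 of 44 genes in complex I, 3 of 8 in complex II, 3 of 8 in complex III, 2 of 12 in complex IV and 4 of 17 in complex V. With 10 libraries, 5 of the 9 higher genes were in complex IV, at 5 of its 13, 2 in complex I and 1 each in complexes II and V. Core subunits are here mostly those that carry the redox groups or the catalytic and rotor parts, and also include the core protein Uqcrc1 of complex III. Of the core subunits 8 of 22 were lower, and of the accessory subunits of complexes I, III and V 8 of 42. The lower count was 13 without siCONTROL library 1, 31 without siCONTROL library 3, 13 without siKEAP1 library 2 and 12 without siKEAP1 library 3, and the higher count was 4 without siCONTROL library 1. With the trend on gene length removed, 36 were lower (40.45%) and 0 higher, beside 22.7% lower and 22.7% higher among all tested genes in that refit. With trends on mRNA length and GC content removed, a refit chosen after the data were seen, 48 were lower (53.9%) and 2 higher (2.25%). All genes in that refit gave 28.5% and 26.7%. The share of lower genes was thus above the background in both of these refits.

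**Figure D2:**
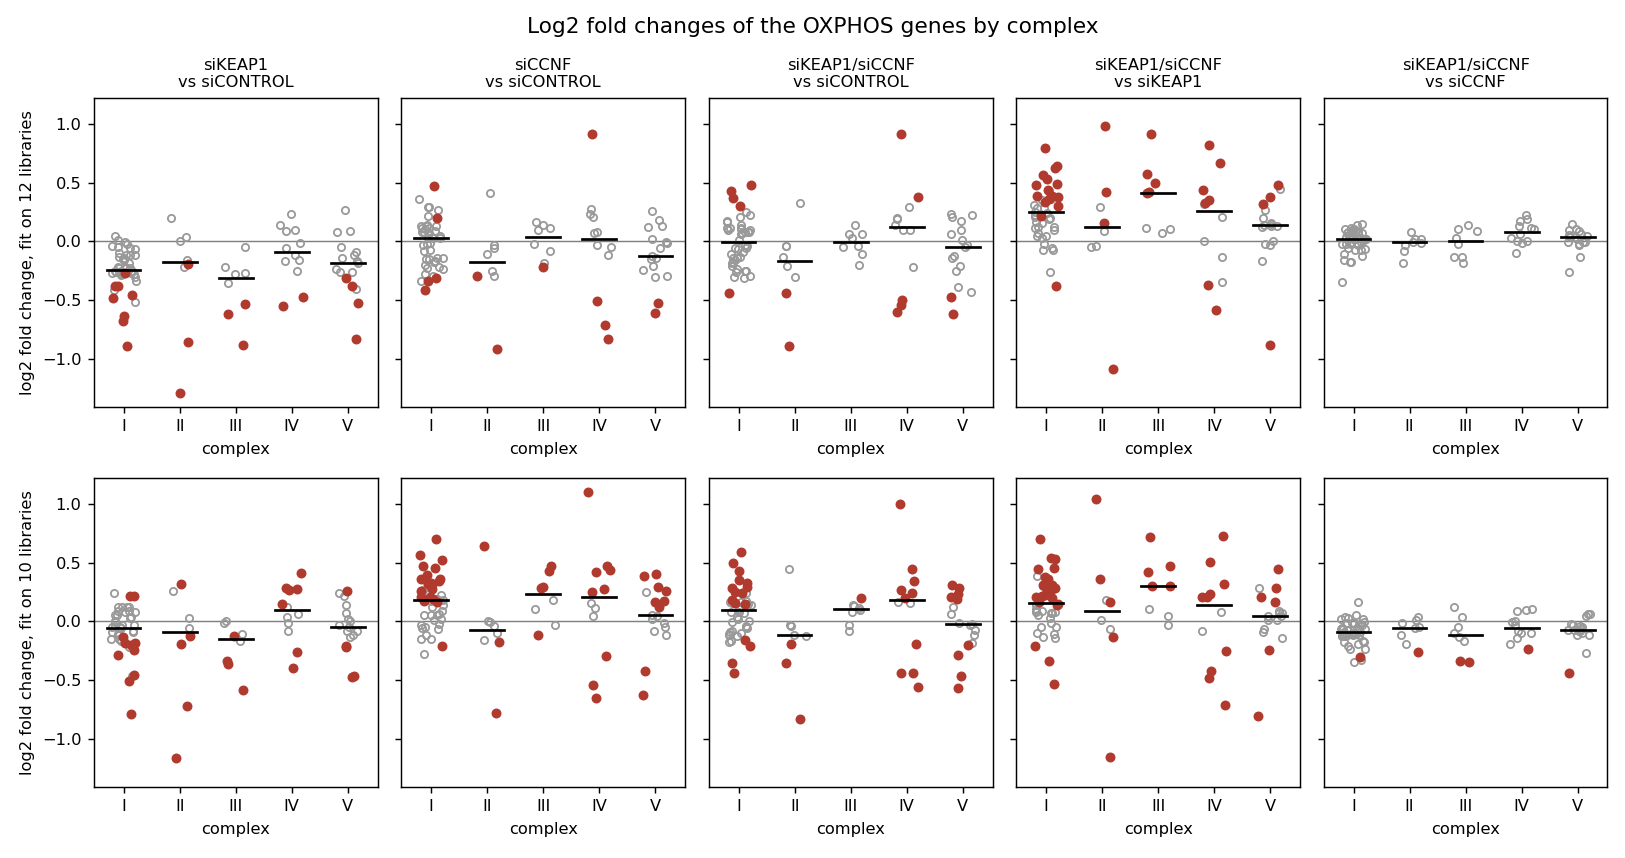
Log2 fold change of each of the 89 tested genes (y axis) by complex (x axis) in every pairwise comparison made here, from all 12 libraries (top) and from 10 libraries (bottom). Filled red points are genes at an adjusted p below 0.05 in edgeR, grey points the others, and black lines the median of a complex. After siKEAP1 the medians of complexes I, II, III and V, between -0.32 and -0.18 with 12 libraries, move to between -0.15 and -0.05 with 10, and the lowest called genes of complexes I, II and III stay below -0.5 in both.

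The calls after siKEAP1 that held in all 22 fits, the main one and 21 alternatives, were 11 of the 20: Ndufs8, Ndufs7, Ndufb9 and the assembly factor Ndufaf3 of complex I, Sdhb of complex II, Uqcrfs1, Uqcr10 and Uqcr11 of complex III, Cox8a of complex IV, and Atp5a1 and Atp5b of complex V. The 3 largest falls among called genes with a mean above 2 CPM and no overlap between the groups were Ndufs8, Uqcr11 and Sdhb. Coordinates are on GRCm38, as in the table. Ndufs8 (ENSMUSG00000059734, chr19:3908870-3912717, minus strand), an iron-sulfur subunit of the quinone-binding module of complex I, stood at 80.2, 63.4 and 65.5 CPM in the siCONTROL libraries, 40.5, 35.7 and 36.7 after siKEAP1, 72.0, 66.1 and 68.0 after siCCNF and 61.8, 60.1 and 74.3 after siKEAP1/siCCNF. Each siKEAP1 library lay below every other library, and the other 3 groups overlapped. Its log2 fold change after siKEAP1 was -0.89 (SE 0.10, adjusted p = 1.75e-05), and -0.79 in 10 libraries (adjusted p = 4.91e-08, edgeR). Sdhb (ENSMUSG00000009863, chr4:140961203-140979193, plus strand), the iron-sulfur subunit of succinate dehydrogenase, was at 118, 89.7 and 87.8 CPM in the siCONTROL libraries, 58.2, 53.1 and 52.0 after siKEAP1, 86.2, 82.8 and 79.6 after siCCNF and 70.6, 68.7 and 79.3 after siKEAP1/siCCNF. Its siKEAP1 libraries were again the lowest, and its siKEAP1/siCCNF libraries lay between siKEAP1 and siCONTROL with no overlap with either. The log2 fold change was -0.86 (SE 0.11, adjusted p = 2.88e-05) after siKEAP1. Uqcr11 (ENSMUSG00000020163, chr10:80402997-80406830, minus strand), a small accessory subunit of complex III, was at 123, 76.1 and 67.2 CPM in the siCONTROL libraries, 50.4, 49.3 and 45.2 after siKEAP1, 114, 88.3 and 95.9 after siCCNF and 79.4, 79.2 and 114 after siKEAP1/siCCNF. The 3 siKEAP1 libraries were the lowest of the 12, and siCONTROL library 1 was far above the other siCONTROL libraries. The fall was -0.88 (SE 0.20, adjusted p = 0.00353) on the log2 scale with all libraries and -0.58 with 10.

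Promoters of these 3 genes and of 3 genes that moved after siCCNF are shown because these genes had the largest changes among called genes whose groups did not overlap. Each runs 5′ to 3′ from 250 bases before to 30 bases after the start of transcription, from RefSeq on GRCm38.p6, with motif matches in capitals. The motifs searched on both strands were those of ETS factors such as GABP (CCGGAAG), of NRF1 (GCGCA, any base, GCGC), YY1 (AAGATGGC), ERRα (TCAAGGTCA), the E-box (CACGTG) and the antioxidant response element (TGACNNNGC).
Ndufs8 (chr19:3912745-3913024, minus strand): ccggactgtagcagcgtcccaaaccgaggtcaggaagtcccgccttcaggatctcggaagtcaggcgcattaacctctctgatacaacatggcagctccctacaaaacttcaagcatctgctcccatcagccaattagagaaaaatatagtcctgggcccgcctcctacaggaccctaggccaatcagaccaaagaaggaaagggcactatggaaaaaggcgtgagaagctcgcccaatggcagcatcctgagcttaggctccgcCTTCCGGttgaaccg
Uqcr11 (chr10:80406792-80407071, minus strand): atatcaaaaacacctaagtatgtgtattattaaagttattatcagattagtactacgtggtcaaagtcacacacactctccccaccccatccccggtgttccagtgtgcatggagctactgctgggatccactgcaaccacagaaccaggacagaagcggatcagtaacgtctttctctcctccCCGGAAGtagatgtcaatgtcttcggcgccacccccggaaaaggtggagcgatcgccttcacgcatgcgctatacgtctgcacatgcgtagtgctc
Sdhb (chr4:140961021-140961300, plus strand): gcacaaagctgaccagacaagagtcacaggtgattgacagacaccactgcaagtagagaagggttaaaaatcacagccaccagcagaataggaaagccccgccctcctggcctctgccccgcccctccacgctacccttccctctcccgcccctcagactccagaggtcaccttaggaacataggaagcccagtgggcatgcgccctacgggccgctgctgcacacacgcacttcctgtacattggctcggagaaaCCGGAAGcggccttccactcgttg
Cox7a2l (chr17:83514304-83514583, minus strand): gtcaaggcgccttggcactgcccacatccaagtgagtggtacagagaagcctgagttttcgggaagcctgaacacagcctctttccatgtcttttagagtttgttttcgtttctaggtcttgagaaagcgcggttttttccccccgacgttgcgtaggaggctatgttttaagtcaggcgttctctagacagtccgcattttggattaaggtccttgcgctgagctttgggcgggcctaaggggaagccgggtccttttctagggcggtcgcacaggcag
Sdhaf4 (chr1:24005611-24005890, minus strand): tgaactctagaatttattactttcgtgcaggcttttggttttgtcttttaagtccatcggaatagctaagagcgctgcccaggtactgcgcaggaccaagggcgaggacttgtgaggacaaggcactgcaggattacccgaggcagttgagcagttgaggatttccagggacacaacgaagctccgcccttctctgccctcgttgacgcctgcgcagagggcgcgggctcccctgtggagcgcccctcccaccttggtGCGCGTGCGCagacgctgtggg
Cox6b1 (chr7:30626085-30626364, minus strand): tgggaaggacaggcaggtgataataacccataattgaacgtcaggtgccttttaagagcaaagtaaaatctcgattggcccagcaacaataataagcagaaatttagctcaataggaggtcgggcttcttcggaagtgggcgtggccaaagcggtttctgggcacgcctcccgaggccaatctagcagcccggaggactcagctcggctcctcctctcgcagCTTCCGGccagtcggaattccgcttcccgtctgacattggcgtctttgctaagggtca
The ETS letters were found just after the start in Ndufs8 and Sdhb and before it in Uqcr11 and Cox6b1, the NRF1 letters just after the start in Sdhaf4, and none of the 6 motifs in Cox7a2l. None of these 6 windows held the antioxidant response element.

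RefSeq promoters were matched for 80 of the 97 symbols, 78 by symbol and 2 by a synonym, and gave 85 promoters of 300 bases. The ETS motif was in 24.7% of them against 8.86% of all 32851 promoters in the table, the NRF1 motif in 25.9% against 4.60%, the YY1 motif in 12.9% against 2.75% and the ERRα motif in 2.35% against 0.42%. The antioxidant response element was in 15.3% against 12.4%, and the E-box in 8.24% against 7.15%. Among the 18 matched promoters of genes that were lower after siKEAP1, 7 held the ETS motif, 3 the NRF1 motif and 2 the antioxidant response element. Those not matched included Atp5a1, Atp5mpl, Cox4i1, Cox4i2, Cox6a2, Cox6c, Cox8c, Ndufa2, Ndufa4l2, Ndufaf6, Ndufb9, Ndufs1, Sdhc, Uqcrb, Uqcrc2 and Uqcrq. These shares are descriptions, and a match of letters is not a binding site.

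The other stable falls after siKEAP1 were smaller. Uqcrfs1 (ENSMUSG00000038462, chr13:30540308-30545362, minus strand), the Rieske iron-sulfur protein of complex III, was at 139, 102 and 95.5 CPM in the siCONTROL libraries, 83.2, 73.8 and 74.8 after siKEAP1, 121, 122 and 116 after siCCNF and 111, 102 and 114 after siKEAP1/siCCNF. The siKEAP1 libraries lay below all others, with a log2 fold change of -0.54 (SE 0.12, adjusted p = 0.00225). Atp5a1, the alpha subunit of the F1 head of ATP synthase, was at 954, 835 and 825 CPM in the siCONTROL libraries, 629.5, 604 and 581 after siKEAP1, 875, 875 and 836 after siCCNF and 827, 815 and 887 after siKEAP1/siCCNF. Here too the siKEAP1 libraries were separate from the other 9, and siCONTROL library 1 stood only moderately above the others. Its log2 fold change was -0.53 (SE 0.07, adjusted p = 4.36e-05) with 12 libraries and -0.47 with 10. Among the assembly factors, Ndufaf3 of complex I changed by -0.68 (adjusted p = 0.0088, edgeR). Its exons share bases on the opposite strand with Impdh2, which had more counts, and whether the counting used strand is not given, so this value is uncertain. Sdhaf1, which helps to build Sdhb into complex II, changed by -1.29 (adjusted p = 0.0148) at levels near 1 CPM, and its call did not hold in every fit. Most of its exon bases are shared with E130208F15Rik on the opposite strand, so this value is uncertain too.

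The subunits that fell most after siKEAP1 included several that hold iron-sulfur clusters, a group chosen after its values were seen. It has 7 nuclear members: Ndufv1, Ndufv2, Ndufs1, Ndufs7 and Ndufs8 of complex I, Sdhb of complex II and Uqcrfs1 of complex III. Of these, 4 were lower after siKEAP1 and none higher, beside 22.5% lower among the 89 genes and 20.2% among all tested genes. Since the group was chosen after its values were seen, its count is no test against those shares. The other 3 had log2 fold changes of -0.26 (Ndufv1), -0.12 (Ndufv2) and -0.12 (Ndufs1). Succinate dehydrogenase itself was uneven. Its flavoprotein Sdha changed by -0.20 with 12 libraries and -0.19 with 10, and its membrane anchors Sdhc and Sdhd had values of -0.22 and -0.16 that missed the threshold, beside -0.86 for Sdhb. In the F1 head, the beta subunit Atp5b, which holds the catalytic sites, changed by -0.31, and the gamma subunit Atp5c1 had a value of 0.09 that did not pass, though with 10 libraries it was higher, at 0.26 (adjusted p = 7.82e-05, edgeR).

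**Figure D3:**
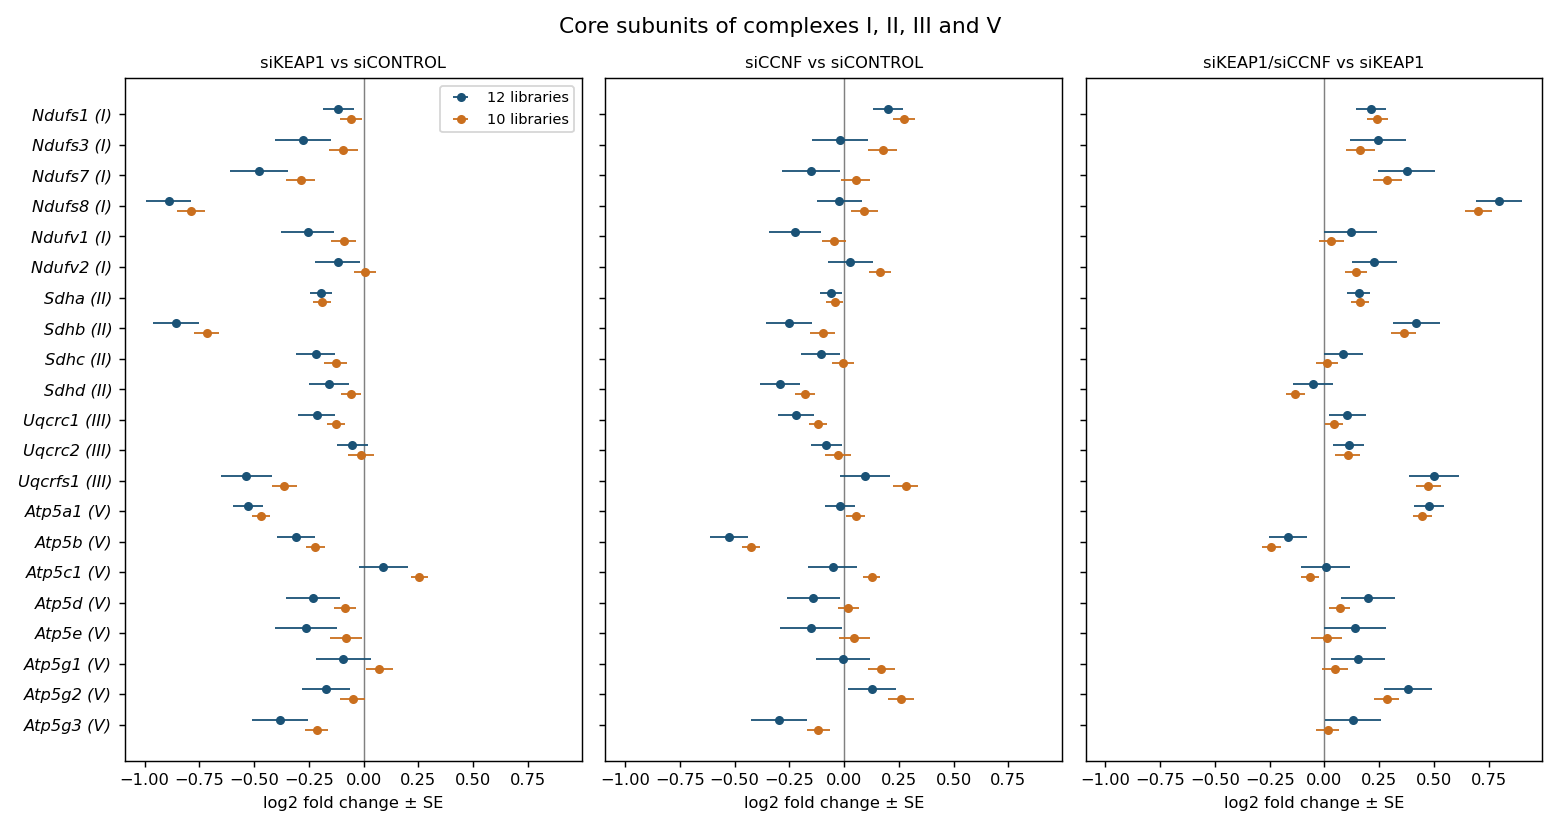
Log2 fold change ± SE (x axis) of core subunits (y axis, with their complex) in 3 comparisons, from 12 libraries (blue) and 10 libraries (orange). Ndufs8 and Sdhb are the lowest after siKEAP1 in both fits, at -0.89 and -0.86 with 12 libraries, and Ndufs8 is the highest in the double against the single KEAP1 depletion, at 0.80.

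When CCNF was depleted along with KEAP1, many of these genes were higher than after siKEAP1 alone. In siKEAP1/siCCNF against siKEAP1, 31 of 89 genes were higher and 5 lower, against backgrounds of 24.1% and 26.9%, and the median log2 fold change was 0.21. The 31 were 15 genes of complex I, 3 of complex II, 5 of complex III, 5 of complex IV and 3 of complex V. With 10 libraries, 40 were higher and 11 lower, against 28.9% and 29.9%, and the median was 0.12. Of the 20 genes that were lower after siKEAP1, 15 were called higher in this comparison, but both comparisons share the 3 siKEAP1 libraries, so this count is not independent support (16 of 23 with 10 libraries). Ndufs8 differed by 0.80 (SE 0.10, adjusted p = 3.19e-05), Uqcr11 by 0.91 (SE 0.20, adjusted p = 0.00211), Sdhb by 0.42 (SE 0.11, adjusted p = 0.00498), Atp5a1 by 0.48 (SE 0.07, adjusted p = 6.89e-05) and Uqcrfs1 by 0.50 (SE 0.12, adjusted p = 0.00273) on the log2 scale. The accessory subunit Ndufa7 differed by 0.64 (SE 0.12, adjusted p = 0.000594). The higher count was 17 without siKEAP1 library 3 and 16 without siKEAP1/siCCNF library 3, and the lower count was 9 without siCONTROL library 1, which enters only through the shared spread and scaling. Keap1 mRNA was itself higher in the double depletion, at 27.5% of the siCONTROL mean against 14.4%, and its part in these differences was not tested.

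The interaction sets what siKEAP1 did on top of siCCNF against what it did in control cells. It was above 0 at the threshold for 4 of 89 genes and below 0 for none, against backgrounds of 10.6% and 10.5%. At an unadjusted p below 0.05, 22 were above and 0 below, and DESeq2 called 7 above and 0 below. Shares over all tested genes are not given for these counts, so they have no background here. The 4 genes were Ndufs8 at 0.82 (SE 0.15, adjusted p = 0.00147), Sdhb at 0.67 (SE 0.15, adjusted p = 0.00625), Atp5a1 at 0.50 (SE 0.10, adjusted p = 0.0028) and Sdha at 0.22 (SE 0.07, adjusted p = 0.0497) on the log2 scale. All 4 are core subunits, from 3 complexes. With 10 libraries, 5 genes were above, among them these 4 with values of 0.61, 0.46, 0.39 and 0.21, and 7 were below, against 16.4% and 14.5%. The median over the tested genes was 0.24 with 12 libraries and -0.01 with 10, while all tested genes stayed at 0.01 in both. The count above was 11 without siCONTROL library 3. It was 15 with the gene length trend removed (16.9%, beside 12.9% of all tested genes). Removing trends on mRNA length and GC content gave 33 (37.1%, beside 17.8%).

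**Figure D4:**
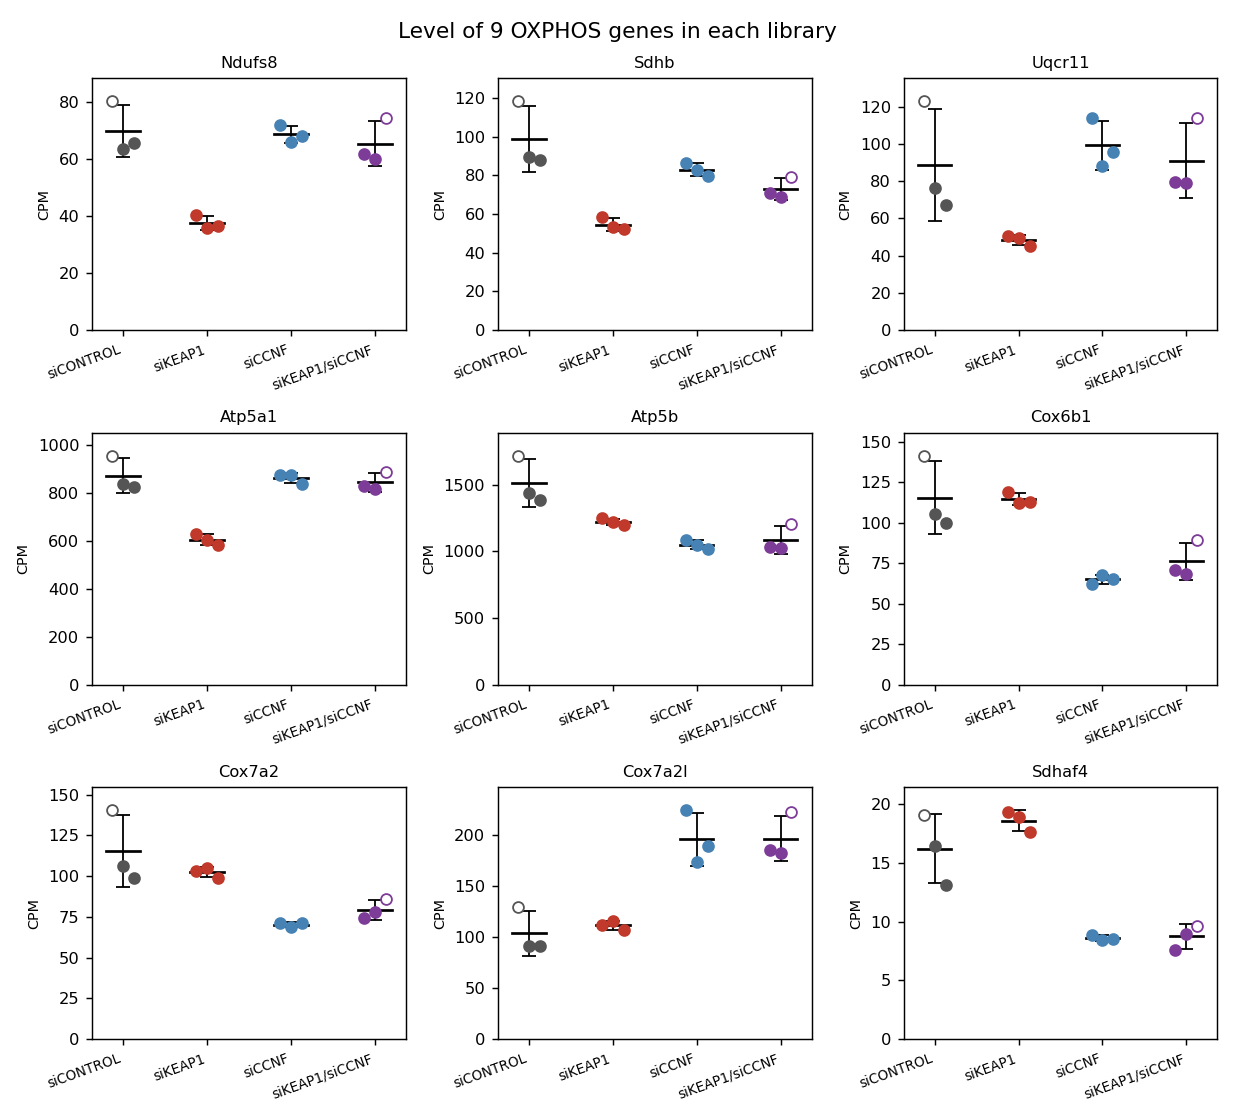
CPM in every library (y axis, from 0) of single genes of oxidative phosphorylation, by siRNA group (x axis). Points are libraries, open circles the pair of libraries that stood apart, and bars the mean ± SD of 3 libraries. Ndufs8, Sdhb and Uqcr11 are lowest after siKEAP1, whereas Cox7a2l is higher and Cox6b1 and Sdhaf4 are lower in both groups that received siCCNF.

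The counts after depletion of CCNF alone depended on the libraries used. With 12 libraries, 3 of 89 genes were higher and 11 lower, against backgrounds of 22.5% and 25.5%, and the median log2 fold change was -0.03. With 10 libraries, 38 were higher and 10 lower, against 26.7% and 27.9%, and the median was 0.15. The higher count was 27 without siCONTROL library 1, 1 without siCONTROL library 2, 1 without siCONTROL library 3, 1 without siCCNF library 1 and 6 without siKEAP1/siCCNF library 3. The lower count was 7 without siCONTROL library 1, 18 without siCONTROL library 3, 6 without siCCNF library 2 and 7 without siCCNF library 3. The set as a whole thus had no direction that held across these refits. Among the refits without 1 library, the higher count moved most without siCONTROL library 1. Removing the trend on gene length gave 7 higher and 19 lower, beside 25.8% and 26.7% of all tested genes. Removing trends on mRNA length and GC content, a refit over 12873 genes chosen after the data were seen, gave 13 and 23, beside 30.9% and 30.3%.

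The calls after siCCNF that held in all 22 fits were a rise of Cox7a2l and falls of Cox6b1, Cox7a2, Sdhaf4, Atp5b and Atp5s. Cox7a2l (ENSMUSG00000024248, chr17:83501919-83514333, minus strand), a relative of subunit 7A that joins complexes III and IV into supercomplexes, was at 129.6, 90.9 and 91.7 CPM in the siCONTROL libraries, 112, 116 and 107 after siKEAP1, 225, 174 and 189 after siCCNF and 185, 183 and 222 after siKEAP1/siCCNF. All 6 libraries that received siCCNF lay above all 6 that did not. Its log2 fold change was 0.91 (SE 0.14, adjusted p = 0.000107) after siCCNF and 0.92 (SE 0.14, adjusted p = 0.000113) after siKEAP1/siCCNF. Cox7a2 (ENSMUSG00000032330, chr9:79755361-79759878, minus strand), the common isoform of subunit 7A of complex IV, moved the other way, with 140.5, 106 and 99.0 CPM in the siCONTROL libraries, 103, 105 and 98.9 after siKEAP1, 71.2, 68.5 and 71.2 after siCCNF and 74.2, 77.9 and 86.0 after siKEAP1/siCCNF. The siCCNF libraries lay below every siCONTROL and siKEAP1 library, and the fold change was -0.71 (SE 0.11, adjusted p = 0.000126) on the log2 scale. Cox6b1 (ENSMUSG00000036751, chr7:30616861-30626151, minus strand), the subunit of complex IV that faces cytochrome c, was at 142, 106 and 99.7 CPM in the siCONTROL libraries, 119, 112 and 113 after siKEAP1, 62.5, 67.8 and 65.1 after siCCNF and 70.8, 68.7 and 89.4 after siKEAP1/siCCNF. Both groups with siCCNF were below all libraries without it, with log2 fold changes of -0.83 (SE 0.13, adjusted p = 0.000122) after siCCNF and -0.60 (SE 0.12, adjusted p = 0.00157) after siKEAP1/siCCNF. Sdhaf4 (ENSMUSG00000026154, chr1:23995939-24005656, minus strand), an assembly factor of complex II that acts on Sdha, was at 19.1, 16.4 and 13.2 CPM in the siCONTROL libraries, 19.3, 18.9 and 17.6 after siKEAP1, 8.89, 8.44 and 8.48 after siCCNF and 7.58, 8.96 and 9.67 after siKEAP1/siCCNF. Its mean was 53.1% of the siCONTROL mean after siCCNF and 53.9% after siKEAP1/siCCNF, with no overlap with siCONTROL, and with log2 fold changes of -0.91 (SE 0.13, adjusted p = 7.49e-05) and -0.89 (SE 0.13, adjusted p = 0.00011). Atp5s, listed by RefSeq as Dmac2l, was at 6.10, 7.43 and 5.15 CPM in the siCONTROL libraries, 6.87, 8.35 and 7.15 after siKEAP1, 4.13, 4.43 and 3.65 after siCCNF and 4.17, 4.31 and 3.65 after siKEAP1/siCCNF. It changed by -0.61 (SE 0.15, adjusted p = 0.00524) after siCCNF and -0.62 (SE 0.16, adjusted p = 0.006) after siKEAP1/siCCNF. Atp5b was at 1716, 1438 and 1381 CPM in the siCONTROL libraries, 1246, 1216 and 1197 after siKEAP1, 1082, 1049 and 1017 after siCCNF and 1030, 1023 and 1207 after siKEAP1/siCCNF. It fell after each depletion, by -0.53 (SE 0.09, adjusted p = 0.000246) after siCCNF on the log2 scale, and the siCCNF libraries were below all siKEAP1 libraries.

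Other calls after siCCNF with 12 libraries did not hold in every fit. The LYR-motif subunit Ndufa6 changed by 0.47 and the iron-sulfur subunit Ndufs1 by 0.20, both higher. Lower were the accessory subunits Ndufa10 (-0.31), Ndufb2 (-0.41) and Ndufb6 (-0.34) of complex I, Cox7b (-0.51) of complex IV, the anchor Sdhd (-0.29) and the core protein Uqcrc1 (-0.22), all as log2 fold changes. Ndufb2 and Ndufb6 were not called lower with 10 libraries. Exons of Ndufb2 share bases on the opposite strand with Braf, which had more counts (11468 against 3169), so its value is uncertain. Complex IV held calls in both directions after siCCNF, with 1 of 12 tested genes higher and 3 lower. Uqcrc1 was the 1 call among 8 genes of complex III, and complex V gave 2 of 17. With 10 libraries, 20 of 44 genes were higher and 1 lower in complex I, 1 and 2 of 8 in complex II, 4 and 1 of 8 in complex III, 6 and 4 of 13 in complex IV and 7 and 2 of 17 in complex V.

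After siKEAP1/siCCNF against siCONTROL, 6 of 89 genes were higher and 8 lower, against backgrounds of 20.6% and 23.6%, with a median log2 fold change of -0.04. With 10 libraries the counts were 24 and 15, against 23.4% and 25.4%, and the median was 0.08. The higher genes with 12 libraries included Cox7a2l, Cox4i1 (0.38), Ndufa6 (0.48), Ndufa7 (0.37) and Ndufa13 (0.43). The lower ones were Sdhaf4, Cox6b1, Atp5s, Cox7a2 (-0.54), Cox7b (-0.50), Atp5b (-0.48), Sdhb (-0.44) and the assembly factor Ndufaf8 (-0.44). Of these, Cox7a2l, Atp5b, Atp5s, Cox6b1, Cox7a2, Sdhaf4 and Sdhb held in all 22 fits. Cox4i1 shares exon bases with Emc8. The higher count was 26 without siCONTROL library 1 and 1 without siCONTROL library 2, siCONTROL library 3 or siKEAP1/siCCNF library 3, and the lower count was 14 without siCONTROL library 3 and 16 without siKEAP1/siCCNF library 3. With the trend on gene length removed, 6 were higher and 18 lower, beside 24.6% and 25.3% of all tested genes.

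Set against siCCNF alone, the double depletion gave no call among the 89 genes in edgeR, DESeq2 or limma, against backgrounds of 3.00% higher and 2.19% lower. At an unadjusted p below 0.05, edgeR and DESeq2 also gave 0 in both directions, and limma on FPKM gave 2 higher and 0 lower. The backgrounds are those of edgeR at an adjusted p, and none are given for the other counts. With 10 libraries, 1 was higher and 6 lower, against 7.31% and 6.75%. The 1 higher gene was Cox6b2, the testis isoform of subunit 6B, which had 0.013 CPM after siCCNF and 0.197 after siKEAP1/siCCNF, levels of few counts. The 6 lower genes were Sdhb (-0.26), Ndufb9 (-0.30), Uqcr10 (-0.35), Uqcr11 (-0.33), Cox8a (-0.23) and Atp5k (-0.44), with log2 fold changes in parentheses. All 6 were also among the genes lower after siKEAP1 in siCONTROL cells. The higher count was 1 without any 1 of the 3 siCONTROL libraries, siKEAP1 library 3, siCCNF library 2 or siKEAP1/siCCNF library 3.

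Several partners of these genes were measured although their symbols fall outside the prefixes used. Cyc1, the cytochrome c1 subunit of complex III, stood at 194 ± 34.0 CPM in siCONTROL cells and 166 ± 1.08 after siKEAP1, and Cycs, somatic cytochrome c, at 122 ± 24.4 and 109 ± 11.0 (mean ± SD, n = 3). Neither difference passed the threshold. Atpif1, the inhibitor of ATP synthase, was at 100.1, 74.9 and 70.9 CPM in the siCONTROL libraries, 90.3, 89.3 and 85.7 after siKEAP1, 53.1, 49.3 and 48.3 after siCCNF and 54.1, 54.0 and 62.7 after siKEAP1/siCCNF. All 6 libraries with siCCNF were below all 6 without, with log2 fold changes of -0.71 (SE 0.11, adjusted p = 0.000187) and -0.53 (SE 0.11, adjusted p = 0.00187). Of 39 tested assembly factors with other names, 2 were higher and 6 lower after siKEAP1, and 8 and 4 after siCCNF. With 10 libraries these were 6 and 6, and 12 and 6. Among all tested genes, 20.4% were higher and 20.2% lower after siKEAP1 and 22.5% and 25.5% after siCCNF with 12 libraries, and 23.6% and 25.0%, and 26.7% and 27.9%, with 10, which are the backgrounds for the lists that follow too.

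The mRNAs of the mitochondrial genome encode the other subunits. Of these 13 mRNAs, 9 were higher and 0 lower after siKEAP1, 10 and 0 after siCCNF, and 9 and 0 after siKEAP1/siCCNF, with median log2 fold changes of 0.53, 0.72 and 0.65. Without the pair of libraries the counts were 10, 10 and 9 higher and 0 lower each. Their summed level was 20300.0 to 21320.0 CPM in siCONTROL cells and 24150.0 to 33080.0 CPM after siKEAP1. The nuclear genes had a median of -0.22 after siKEAP1, with 0 higher, but after siCCNF with 10 libraries 38 of them were higher too, and the difference between nuclear and mitochondrial genes was not tested.

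**Figure D5:**
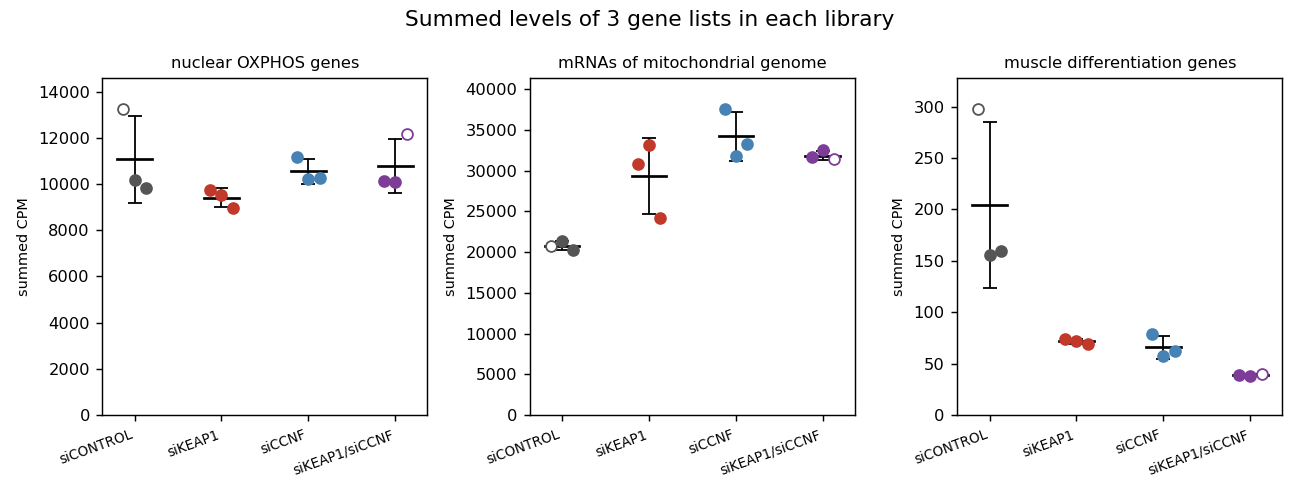
Summed CPM in every library (y axes, from 0) of the nuclear genes of oxidative phosphorylation, the 13 mRNAs of the mitochondrial genome and the muscle differentiation genes, by siRNA group (x axes). Points are libraries, open circles the pair that stood apart, and bars the mean ± SD of 3 libraries. The mitochondrial mRNAs are above siCONTROL in all depleted libraries and the muscle genes below, whereas the nuclear genes overlap between groups apart from siKEAP1, whose 3 libraries are below every siCONTROL library.

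Among 17 tested regulators of mitochondrial genes, 2 were higher and 3 lower after siKEAP1, 4 and 7 after siCCNF, and 2 and 7 after siKEAP1/siCCNF. With 10 libraries, 3 were higher and 6 lower after siKEAP1. Ppargc1a, the coactivator PGC-1α, was at 0.448, 0.38 and 0.337 CPM in the siCONTROL libraries, 2.09, 2.43 and 2.37 after siKEAP1, 1.08, 2.02 and 2.09 after siCCNF and 1.47, 1.69 and 0.923 after siKEAP1/siCCNF. Every depleted library was above every siCONTROL library, with a log2 fold change of 2.55 (SE 0.35, adjusted p = 7.07e-05) after siKEAP1, though all levels were below 3 CPM. Ppargc1b, its relative, went from 7.24 CPM in siCONTROL cells to 4.83, 3.57 and 3.10 CPM after siKEAP1, siCCNF and siKEAP1/siCCNF, lower in each. Nrf1 mRNA was lower after siKEAP1 (-0.37), siCCNF (-0.22) and siKEAP1/siCCNF (-0.18), as was Gabpb1, the beta subunit of GABP (-0.47, -0.58 and -0.56). Gabpa, its DNA-binding subunit, Yy1, and Tfam and Tfb2m, which act in transcription of the mitochondrial genome, fell after siCCNF (log2 fold changes -0.46, -0.64, -0.42 and -0.44). Exons of Gabpa share bases with Atp5j. Regulators called higher, other than Ppargc1a, are not named here, so the named genes lean to the lower side of these counts. Esrra, which encodes ERRα, had means of 54.9, 56.8, 57.1 and 53.6 CPM in the 4 groups and gave no call against siCONTROL.

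Of 22 genes of the citric acid cycle and pyruvate dehydrogenase, 3 were higher and 8 lower after siKEAP1 and the same numbers after siCCNF, where 10 libraries gave 5 and 9. Of 15 tested genes of the outer membrane and protein import, 1 was higher and 3 lower after siKEAP1, and 6 and 3 after siCCNF, which became 2 and 3, and 9 and 2, with 10 libraries. The mRNAs of muscle differentiation were lower in all depletions, by 19, 18 and 19 of 21 tested genes after siKEAP1, siCCNF and siKEAP1/siCCNF, with 1, 0 and 0 higher. Their summed level was 156.0 to 298 CPM in siCONTROL cells, highest in library 1, 69.4 to 74.0 after siKEAP1, 57.0 to 78.8 after siCCNF and 37.7 to 39.9 after siKEAP1/siCCNF. The myoblast markers, among them Myod1 and Des, were lower for 6, 7 and 7 of 7. The part of this shift in the results was not tested. Defining markers of other cell types were near 0: the 5 adipocyte genes summed to at most 3.40 CPM, the 5 endothelial genes to 3.02 and the 5 leukocyte genes, mostly Cd68, to 10.1, each highest after siKEAP1, and 1 adipocyte and 2 leukocyte genes were at 0 in every library. The 5 epithelial genes summed to 4.99 to 6.19 CPM in siCONTROL cells and 43.8 to 50.9 after siKEAP1, almost all of it Krt19, and the 5 osteoblast genes to 18.6 to 22.6 and 12.9 to 15.5. After siCCNF these sums were 2.10 to 2.99 CPM for the epithelial and 2.76 to 4.65 for the osteoblast genes. After siKEAP1/siCCNF they were 3.78 to 4.99 and 4.22 to 4.48 CPM. Their part in the results was not tested.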

How the data were processed

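Poly(A) RNA of 12 C2C12 libraries, 3 in each of 4 siRNA groups, was sequenced and processed by a service provider for the authors. Each gene has, in the deposited table, a raw read count per library and an FPKM value, beside columns of log2 fold changes and p-values by the authors that were not used. The submitters' processing notes name HISAT2 and GRCm39, without versions, but the coordinates in the table are those of GRCm38: 53462 of the 54409 identifiers shared with GENCODE M21 have equal coordinates. The counting tool and its use of strand are not given in the sources used here. Of the 98 genes, 35 share exon bases with another gene, 19 of them with one that also had sizeable counts, and 1 of 7 pseudogene rows named after them held over 100 counts. Such values are uncertain.

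The members and lists were chosen with earlier results of these data known. Counts were filtered with filterByExpr, scaled by TMM and fitted with edgeR 4.0.16 (R 4.3.3) as 4 group means over 12 libraries, with 6 comparisons, with Benjamini-Hochberg adjustment across the 15122 tested genes. The SE of a log2 fold change is from that fit. CPM values use TMM scaling. Genes were named by rule. Per comparison these were up to 3 rises and 3 falls with the largest log2 fold change. They came from called members above 2 CPM whose groups did not overlap. Core subunits, isoform families, Cyc1, Cycs, the ATPase inhibitor and called regulators were added, but not every regulator called higher was named. Other genes were named after their values were seen, to spell out a count. Alternatives were DESeq2 1.42.0, limma 3.58.1 on log2(FPKM + 1), other filters and scalings, a replicate block, length trends removed and libraries left out. On simulated counts for siKEAP1 against siCONTROL over 14730 genes, 73 of 100 genes changed 1.5-fold and 87 of 100 changed 2-fold were recovered. The simulated counts had the same spread for every gene and no deviating libraries. They check the code and do not give the recovery in these libraries. Intervals and floors (3 counts) cover counting error only.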

Additional observations from a re-analysis of the deposited data

Results flagged for a closer look

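The effect of siKEAP1 differed between CCNF-depleted and siCONTROL cells for 4 of 89 tested genes of oxidative phosphorylation (4.49%, beside 10.6% of all tested genes above 0), by the interaction term of edgeR's model. The difference on the log2 scale was 0.82 for Ndufs8, 0.67 for Sdhb, 0.50 for Atp5a1 and 0.22 for Sdha, each above 0 and all of them core subunits. Without the pair of libraries that stood apart, 5 genes were above 0 and 7 below, and the median over the genes was -0.01. In 22 fits the first 3 were called each time, and Sdha lay close to the threshold, at an adjusted p of 0.0497. With the gene length trend removed, 15 genes were above 0 (16.9%, beside 12.9% of all tested genes). With trends on mRNA length and GC content removed, 33 were above 0 (37.1%, beside 17.8%). Keap1 mRNA was higher in the double than in the single depletion, and its part in these differences was not tested.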

How the results depend on the processing

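The 20 values of the 9 genes named by the rule kept their direction and call under all 21 alternatives. The counts of genes moved. Over refits without 1 library each, after siKEAP1 0 to 4 genes were higher and 12 to 31 lower, after siCCNF 1 to 27 and 6 to 18, after siKEAP1/siCCNF 1 to 26 and 6 to 16, for siKEAP1/siCCNF against siKEAP1 16 to 43 and 4 to 9, against siCCNF 0 to 1 and 0 to 0, and for the interaction 3 to 11 above 0 and 0 to 0 below. Without the pair of libraries that stood apart, 9 genes were higher with siKEAP1, 38 with siCCNF and 24 with both siRNAs, where 15 were lower, 11 were lower against siKEAP1, 1 was higher and 6 lower against siCCNF, and the interaction was below 0 for 7. With the gene length trend removed, 36 were lower after siKEAP1, 7 higher and 19 lower after siCCNF, 18 lower after siKEAP1/siCCNF, 8 lower against siKEAP1, and the interaction was above 0 for 15. Among all tested genes in that refit, 22.7% were lower after siKEAP1, and 25.8% were higher and 26.7% lower after siCCNF. Lower shares were 25.3% after siKEAP1/siCCNF and 28.3% against siKEAP1, and 12.9% were above 0 in the interaction. With trends on mRNA length and GC content removed over 12873 genes, chosen after seeing the data, these were 48 lower and 2 higher after siKEAP1, 13 higher and 23 lower after siCCNF, 12 and 25 with both siRNAs (all genes in this refit: 28.5% lower and 26.7% higher, 30.9% and 30.3%, and 28.6% and 29.7%), 9 lower against siKEAP1, 3 lower against siCCNF and 33 for the interaction. Among all genes in this refit, 32.4% were lower against siKEAP1, 7.38% lower against siCCNF and 17.8% above 0 in the interaction. With no filter on low counts, which tested 96 of the genes, 36 were lower after siKEAP1, 9 higher after siCCNF, 13 lower after siKEAP1/siCCNF, 1 higher against siCCNF, and 17 above 0 in the interaction. With at least 10 counts in every library, 6 were higher after siCCNF, with limma 1 was higher after siKEAP1, and with DESeq2 the interaction was above 0 for 7. Requiring a 2-fold change left 1 lower after siKEAP1, 0 higher and 0 lower after siCCNF and after siKEAP1/siCCNF, 0 higher and 1 lower against siKEAP1, and 0 for the interaction. Of all 15122 tested genes, this left 1148 higher and 587 lower after siKEAP1, 697 and 1022 after siCCNF, and 716 and 838 after siKEAP1/siCCNF. Against siKEAP1 it left 804 and 1387, and for the interaction 321 above 0 and 615 below. Shares over all genes are not given for the refits without 1 library, without a filter or with at least 10 counts. Nor are they given for DESeq2, limma, the replicate block or counts at an unadjusted p. The causes were not tested.

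Libraries of different groups share replicate numbers. The deviations of same-numbered libraries correlated between -0.27 and 0.20 over 18 pairs, with 4 above 0.1. A pair with different numbers, siCONTROL library 1 and siKEAP1/siCCNF library 3, reached 0.39. Whether the numbers pair the libraries cannot be told from these values, and the main fit did not pair them. With the replicate block, 5 genes were higher after siCCNF, and the block moved no other count by over 1.5 times. Depth limits the 9 untested genes, which had at most 97 counts in all 12 libraries together.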
